A study of Mus musculus with 10 samples.

Results

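The Hox genes are the homeobox transcription factors that sit side by side in 4 clusters of the mouse genome, here every gene of the expression table whose symbol is Hoxa, Hoxb, Hoxc or Hoxd followed by a number. The rule found 39 genes among 55426 table entries, with 11 in Hoxa, 10 in Hoxb, 9 in Hoxc and 9 in Hoxd. It used the gene names alone and no measured value. The same 4 clusters were read for binding of PRDM16, which gave 68 of the 11271 PRDM16 peaks.

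The study compared thoracic aortas of 3 Control mice (Prdm16f/f, without Cre) with those of 3 Prdm16SMKO mice (Prdm16f/f with SMMHC-CreERT2) by poly(A) RNA-Seq, 1 library for each aorta. All 6 mice therefore carried the floxed allele. SMMHC-CreERT2 is a tamoxifen-inducible Cre driven by the smooth muscle myosin heavy chain (Myh11) promoter. It is carried on the Y chromosome, so the Prdm16SMKO mice were male. The sex of the Control mice, which lack this Cre, does not follow from it. The mice were on the C57BL/6J background. Tamoxifen was given by gavage from 8 weeks of age for 5 days, followed by 2 weeks of washout. The sources used here do not say whether the Control mice received it or at which time of day the aortas were taken. PRDM16 binding was measured by ChIP-Seq in another cell type. Primary fibroblasts of the mouse received PRDM16 with a Flag tag, or the empty vector, by a 48-hour lentiviral infection, and were then kept in puromycin (2 µg/mL) for 1 week. Each condition gave 1 anti-Flag library. Overexpressed, tagged protein in fibroblasts thus stands beside transcript levels in whole aorta.

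HOX proteins give cells along the head-to-tail axis their positional identity. Genes of 1 cluster are numbered by paralog group, and genes of low number lie at one end and are switched on earlier and further toward the head than genes of high number at the other end. Adult fibroblasts and vascular smooth muscle cells keep part of the Hox pattern of the body region from which they came. PRDM16, the factor deleted or overexpressed here, is a zinc-finger protein of the PR-domain family best known for its roles in brown fat and in blood stem cells.

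Sequences under the strongest PRDM16 peak of each cluster are shown first, since these are the places in the clusters where the tagged protein gave its highest signal. Each is the 101 bases centred on the peak summit on the plus strand of GRCm38, with CpG dinucleotides in capitals.
Hoxa, chr6:52168693-52168793, in an exon of the noncoding transcript Hoxaas2: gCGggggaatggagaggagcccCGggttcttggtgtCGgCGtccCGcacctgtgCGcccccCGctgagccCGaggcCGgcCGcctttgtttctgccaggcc
Hoxb, chr11:96332867-96332967, in an intron of Hoxb3: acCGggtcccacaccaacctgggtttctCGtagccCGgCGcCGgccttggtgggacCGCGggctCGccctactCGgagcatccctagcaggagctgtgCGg
Hoxc, chr15:102991982-102992082, in the intron of Hoxc8: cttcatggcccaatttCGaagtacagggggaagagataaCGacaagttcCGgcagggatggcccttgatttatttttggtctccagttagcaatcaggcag
Hoxd, chr2:74682088-74682188, just before the inner of 2 starts of Hoxd11: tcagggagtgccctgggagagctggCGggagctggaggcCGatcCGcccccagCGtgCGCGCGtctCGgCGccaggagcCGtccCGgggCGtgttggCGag
The windows of Hoxa, Hoxb and Hoxd held 10, 10 and 13 CpGs and were 73.3%, 70.3% and 76.2% GC, whereas the Hoxc window held 3 CpGs and was 48.5% GC. Over the summit windows of all 11258 peaks on the assembled chromosomes the median was 6 CpGs, and over those of the 68 Hox peaks it was 5.

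Only the Hoxc window held motifs searched for on both strands. AGATAA, the core of the site read by the zinc fingers of the PRDM3 and PRDM16 type, lay at bases 34 to 39 of that window. TGATNNAT, a site of the kind that PBX and HOX proteins bind as a pair, lay at bases 66 to 73, without overlap. AGATAA was found in 2 of the 68 Hox summit windows (2.94%) and in 1.98% of all summit windows. TGATNNAT was found in 1 Hox window (1.47%) and in 1.35% of all. TAATTA, a homeodomain core, was found in 0 of the 68 Hox windows and in 0.338% of all. These shares are matches of letters in a short window and say nothing on their own about which factor bound there.

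Promoters of 3 Hoxa genes show sequence from the side of the cluster with peaks and the side without. Each is a 300-base window over the gene start from the RefSeq table for GRCm38.p6, on the gene's strand and with CpGs in capitals. Of the 39 genes, 22 were matched in that table.
Hoxa2, chr6:52164782-52165081, minus strand, inside a PRDM16 peak: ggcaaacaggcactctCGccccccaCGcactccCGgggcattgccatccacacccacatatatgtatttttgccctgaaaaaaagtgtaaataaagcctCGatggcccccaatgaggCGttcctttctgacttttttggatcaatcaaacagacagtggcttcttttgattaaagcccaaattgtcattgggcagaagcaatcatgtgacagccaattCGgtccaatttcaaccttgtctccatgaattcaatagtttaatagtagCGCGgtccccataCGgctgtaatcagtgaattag
Hoxa7, chr6:52218524-52218823, minus strand, with no peak: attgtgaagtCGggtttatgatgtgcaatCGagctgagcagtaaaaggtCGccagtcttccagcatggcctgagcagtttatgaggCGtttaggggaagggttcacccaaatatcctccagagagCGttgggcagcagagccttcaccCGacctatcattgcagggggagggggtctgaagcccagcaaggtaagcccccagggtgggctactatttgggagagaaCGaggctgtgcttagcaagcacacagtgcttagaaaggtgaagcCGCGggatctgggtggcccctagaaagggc
Hoxa9, chr6:52227321-52227620, minus strand, with no peak: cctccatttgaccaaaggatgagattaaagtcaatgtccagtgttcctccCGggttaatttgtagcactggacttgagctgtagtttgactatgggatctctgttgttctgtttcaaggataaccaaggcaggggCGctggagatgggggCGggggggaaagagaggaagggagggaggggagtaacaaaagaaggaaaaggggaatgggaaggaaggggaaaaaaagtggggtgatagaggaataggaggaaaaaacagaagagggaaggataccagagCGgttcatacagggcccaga
These promoters held 9, 9 and 4 CpGs, against a median of 7 over the 32851 promoters of the table and of 14.5 over the Hox promoters in it. The Hoxa2 promoter held TGATNNAT on the other strand, and 8.85% of all promoters held it on either strand. For AGATAA and TAATTA the shares of all promoters were 11.2% and 5.29%, and neither Hoxa7 nor Hoxa9 held any of the 3 motifs.

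Transcript levels in the aorta were given as TPM, a level corrected for transcript length that sums to the same total in every library, so that different genes can be set side by side. How many reads lie behind a value is unknown, since TPM keeps no depth. The poly(A) libraries did not mark the strand. Reads from Hox genes could not be told apart from those of antisense and overlapping transcripts such as Hotairm1, Hoxaas2, Hoxaas3, Hoxb3os and Hoxb5os. The Hoxa3 model spans Hoxa4, Hoxa5 and Hoxa6, the Hoxc5 model spans Hoxc6, Hoxc8 and Hoxc9, and Hoxd3 and Hoxd4 overlap, so the split of reads among these genes is uncertain.

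Most Hox transcripts of the aorta came from genes of paralog groups 2 to 8 in the Hoxa and Hoxb clusters. Hoxa summed to 87.9 ± 11.7 TPM and Hoxb to 85.6 ± 9.83 TPM in Control aortas (SD, n = 3), or 47.5% and 46.3% of all Hox transcripts. Hoxc summed to 9.59 ± 2.81 TPM and Hoxd to 1.91 ± 0.637 TPM. In the 3 Control aortas the sum of all Hox genes was 207.6, 183.1 and 164.6 TPM, and in the 3 Prdm16SMKO aortas it was 204.9, 213.5 and 181.8 TPM. The groups overlapped in this sum. The order of the clusters was the same in both groups, with 100.3 ± 7.16 TPM for Hoxa, 88.9 ± 11.3 for Hoxb, 8.79 ± 1.18 for Hoxc and 2.10 ± 0.701 for Hoxd in Prdm16SMKO aortas.

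**Figure D1:**
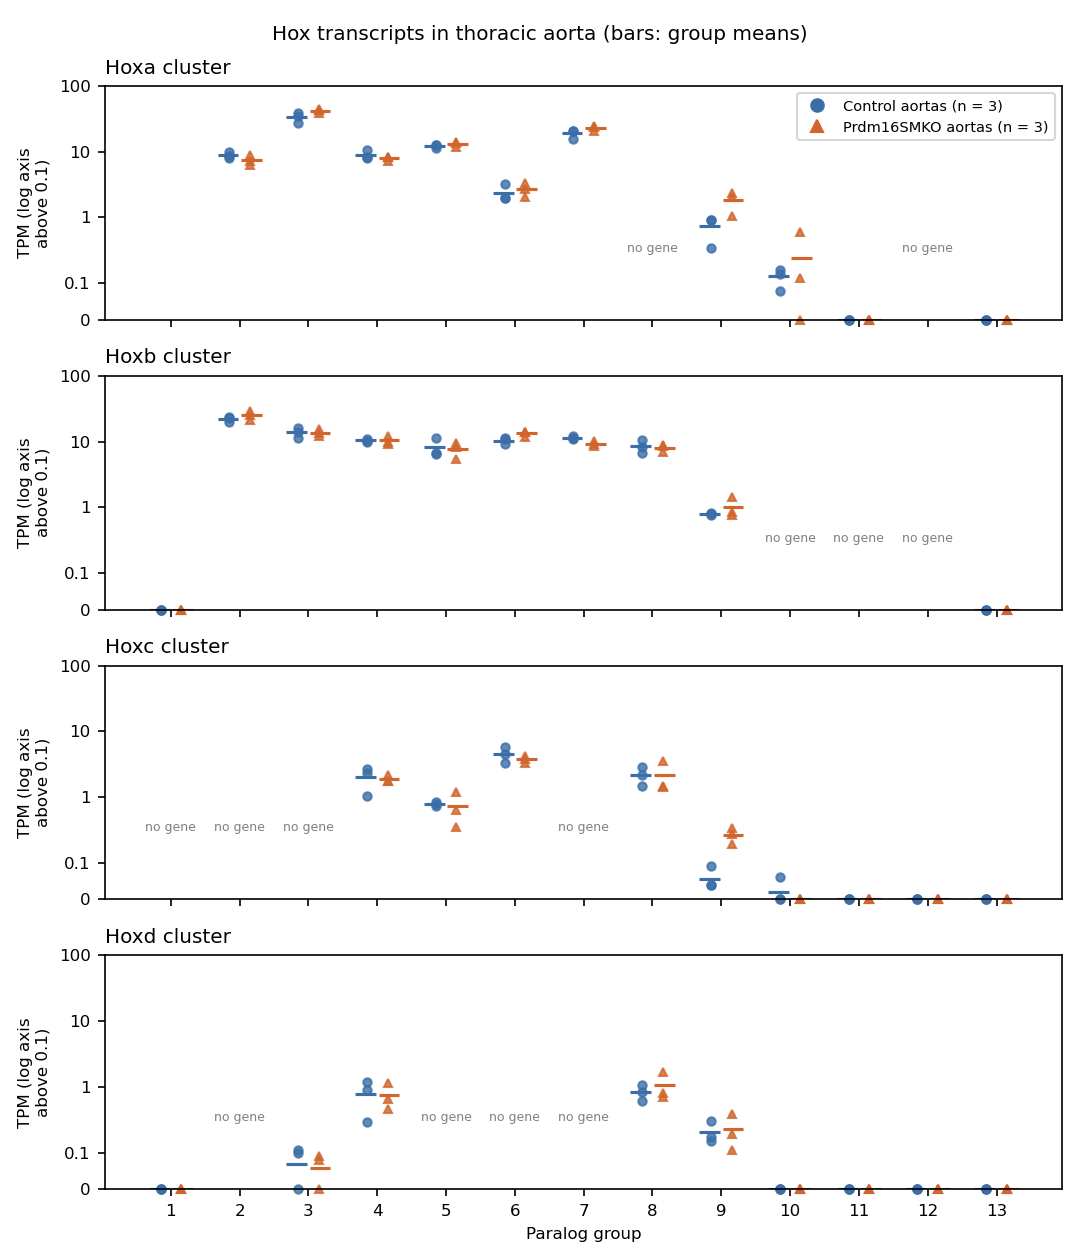
TPM of 38 Hox genes in 3 Control aortas (circles) and 3 Prdm16SMKO aortas (triangles), by cluster and paralog group, with horizontal bars for group means and an axis that is linear below 0.1 and logarithmic above it. Hoxa and Hoxb genes of groups 2 to 7 sit near or above 2 TPM, levels drop at group 9, and genes of groups 11 to 13 sit at 0 in all 6 aortas.

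Levels did not follow paralog number evenly. Paralog group 3, whose genes pattern the arch arteries and the throat region in the embryo, was the highest and summed to 47.7 ± 8.06 TPM in Control aortas. Group 2 summed to 31.0 ± 2.92 TPM and group 7 to 30.5 ± 3.16 TPM. Groups 4, 5, 6 and 8 lay at 22.3 ± 2.00, 21.1 ± 3.19, 17.2 ± 2.49 and 11.6 ± 2.11 TPM. There was a sharp drop after group 8, with 1.79 ± 0.392 TPM for group 9 and 0.147 ± 0.0702 TPM for group 10. All 9 genes of groups 11, 12 and 13 were listed at 0 in all 6 aortas.

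**Figure D2:**
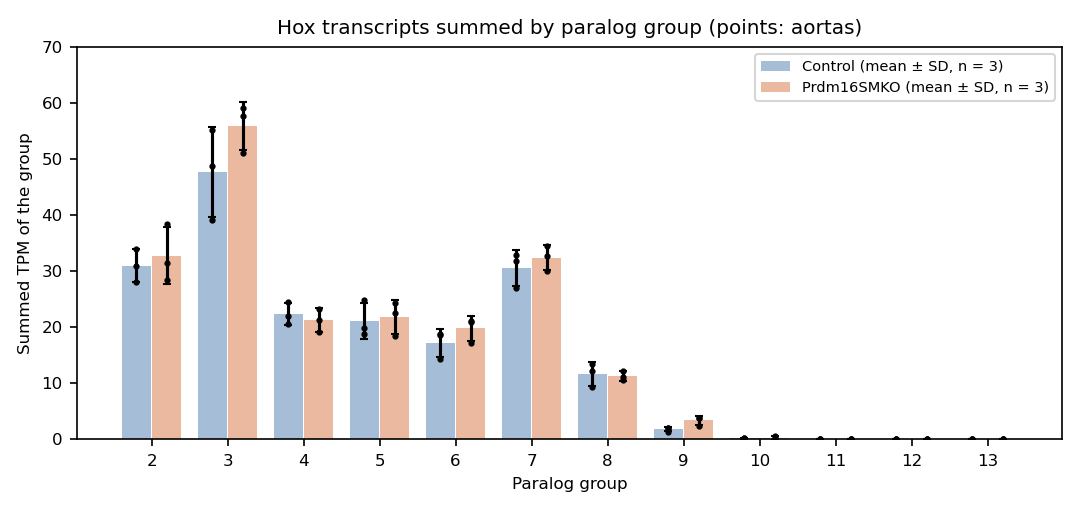
Summed TPM of the genes of paralog groups 2 to 13, as mean ± SD of 3 aortas (bars) with each aorta as a point, for Control and Prdm16SMKO. Group 3 is highest at 47.7 and 55.9 TPM, group 8 lies near 11 TPM in both, and group 9 is at 1.79 and 3.34 TPM.

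In all, 12 of the 39 genes were listed at 0 in every aorta. These were Hoxa11, Hoxa13, Hoxb1, Hoxb13, Hoxc11, Hoxc12, Hoxc13, Hoxd1, Hoxd10, Hoxd11, Hoxd12 and Hoxd13. A further 5 were above 0 in some aortas but had a mean under 0.5 TPM, namely Hoxa10, Hoxc9, Hoxc10, Hoxd3 and Hoxd9. The other 22 passed this filter, 8 of Hoxa, 8 of Hoxb, 4 of Hoxc and 2 of Hoxd.

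Hoxa3 had the highest level. Its TPM was 39.1, 34.6 and 27.8 in the Control aortas, above the range of the next gene, and its mean was at percentile 81.2 of all tested genes. Hoxb2 followed with 23.8, 19.5 and 23.0 TPM and overlapped the third gene, Hoxa7, at 20.8, 21.01 and 15.4 TPM. Below them lay a group in which each gene overlapped its neighbor in the order. It ran from Hoxb3 at 13.8 ± 2.33 TPM through Hoxa5 at 12.2 ± 0.823, Hoxb7 at 11.5 ± 0.616, Hoxb4 at 10.4 ± 0.593 and Hoxb6 at 10.3 ± 1.13. It went on with Hoxa4 at 9.06 ± 1.47, Hoxa2 at 8.85 ± 1.08, Hoxb8 at 8.59 ± 1.96 and Hoxb5 at 8.17 ± 2.85 TPM. Hoxa5, a factor of lung and thoracic patterning, and Hoxb7 were thus close to each other in level although they lie in different clusters.

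Hoxc6 stood alone at 4.54 ± 1.25 TPM, without overlap with the genes on either side in the order. Hoxa6 at 2.38 ± 0.690, Hoxc8 at 2.17 ± 0.715 and Hoxc4 at 2.03 ± 0.866 TPM overlapped from one to the next. The lowest genes that passed the filter were Hoxd8 at 0.840 ± 0.230, Hoxb9 at 0.797 ± 0.0351, Hoxd4 at 0.790 ± 0.455, Hoxc5 at 0.777 ± 0.0551 and Hoxa9 at 0.730 ± 0.338 TPM, all overlapping. Within Hoxa, levels therefore did not fall evenly with position. Hoxa6 lay below both of its neighbors, Hoxa5 and Hoxa7, without overlap in the Control aortas.

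The level of Prdm16 itself was read as a check on the deletion. It was at 56.1, 47.6 and 40.3 TPM in Control and 23.3, 33.3 and 23.4 TPM in Prdm16SMKO aortas, with no overlap (log2 difference −0.85, adjusted p = 0.0725, limma with Benjamini-Hochberg adjustment). By its adjusted p, Prdm16 itself thus did not pass the threshold that was applied to all genes. The TPM of a whole gene does not show whether its floxed part was removed. Whole aorta also holds cells in which this Cre is not active, and their part in the remaining Prdm16 transcript was not tested. Of the marker lists, smooth muscle markers (6 genes, none at 0) summed to 20405 to 23692 TPM in Control and 13570 to 17531 TPM in Prdm16SMKO aortas. The sums did not overlap, and 0 of 6 were called. By gene, the log2 differences ran from −0.63 to 0.25, with 5 below 0 and 1 above. Of the 6, 3 were wholly lower, against 14.9% of all genes tested. Fibroblast markers (926 to 1171 against 789 to 1127 TPM), endothelial markers (88.4 to 110.2 against 61.3 to 137.2 TPM) and those of macrophages, blood, brown and white fat, skeletal muscle and nerve overlapped. Brown fat markers ran from 79.4 to 512.1 TPM within Control and from 127.1 to 438.7 TPM within Prdm16SMKO. The 4 cardiac markers summed to 18.9 to 37.8 TPM in Control and 489.6 to 507.8 TPM in Prdm16SMKO aortas. Nearly all of that was Tnnt2, at 33.8, 21.7 and 16.8 against 483.8, 502.6 and 502.9 TPM (adjusted p = 0.00015, limma), while Myh6, Myl7 and Nppa overlapped between the groups. The part of these shifts in the Hox values was not tested, and fewer cells of a type and less RNA per cell cannot be told apart in whole tissue.

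No Hox gene passed the test between Prdm16SMKO and Control aortas. The differences were taken on log2(TPM + 0.1) by limma with Benjamini-Hochberg adjustment over 15668 genes, of which 168 (1.07%) passed at 0.05. Among the 22 Hox genes 0 passed. At an unadjusted p under 0.05 the count was 2 of 22, Hoxa9 and Hoxb6, against 12.7% of all genes tested. Values in Prdm16SMKO aortas lay wholly above Control for Hoxa9 and Hoxb6, 2 of 22 against 4.08% of all genes, and wholly below for Hoxb7, 1 of 22 against 14.9% of all genes. The median log2 difference over the 22 Hox genes was −0.00023, with 11 genes above 0 and 11 below, against −0.12 over all genes tested. The median half-width of the 95% confidence intervals was 0.50 for the Hox genes, so changes well under that size could not have been resolved. These intervals, from 3 aortas a group, are not adjusted for the 15668 genes. Larger changes could therefore also fail to pass, as Hoxa9 did with a log2 difference of 1.24.

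**Figure D3:**
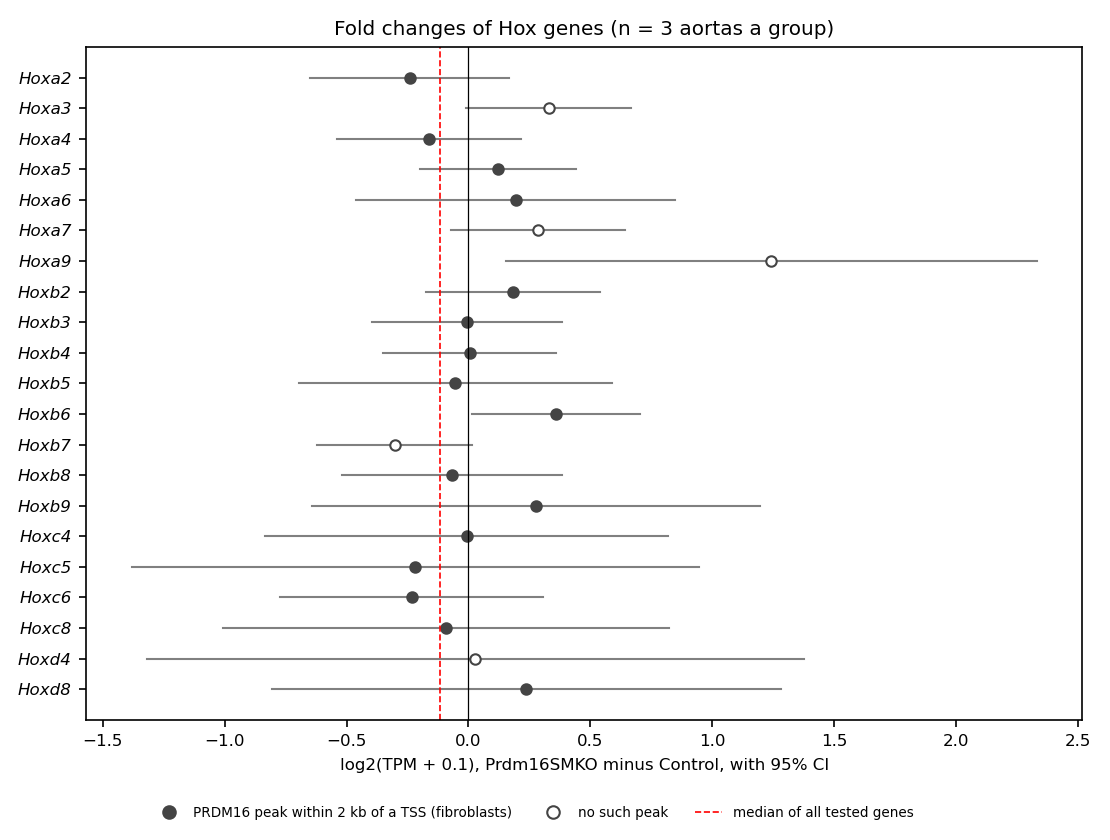
Difference of log2(TPM + 0.1) between Prdm16SMKO and Control for 21 of the 22 Hox genes tested, with 95% confidence intervals from limma (3 aortas a group), filled where a PRDM16 peak lay within 2 kb of a gene start in fibroblasts, and a dashed line at the median of all genes (−0.12). Intervals of Hoxa9 and Hoxb6 alone leave out 0, before any adjustment, and Hoxa9 has the widest shift at 1.24.

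Hoxa9, a group 9 gene known for its role in blood progenitors, differed most in size. It was at 0.93, 0.34 and 0.92 TPM in Control and 2.06, 1.05 and 2.36 TPM in Prdm16SMKO aortas. All 3 Prdm16SMKO values lay above all Control values, and the second aorta of each group was the lowest. The log2 difference was 1.24 ± 0.48 (SE), with an adjusted p of 0.33 (limma). With a pseudocount of 1 in place of 0.1 it was 0.70.

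Other group 9 genes were read beside it. Hoxc9 was at 0.04, 0.09 and 0.04 TPM in Control and 0.19, 0.27 and 0.34 TPM in Prdm16SMKO aortas, without overlap, but its mean was under the filter of the main fit. Hoxb9 was at 0.83, 0.76 and 0.80 against 1.45, 0.85 and 0.77 TPM, with overlap (log2 difference 0.28, 95% CI −0.64 to 1.20). Hoxd9 was at 0.17, 0.15 and 0.30 against 0.11, 0.19 and 0.38 TPM. Summed over its 4 genes, group 9 was at 1.97, 1.34 and 2.06 TPM in Control and 3.81, 2.36 and 3.85 TPM in Prdm16SMKO aortas, the one expressed group whose sums did not overlap. This group was singled out after its values were seen, so no test is given. As a share of all Hox transcripts it overlapped, at 0.732% to 1.25% in Control and 1.11% to 2.12% in Prdm16SMKO aortas. In both genotypes the group 9 sum stayed under the sum of each of groups 2 to 8, although single low genes of those groups, such as Hoxc5 and Hoxd8, lay below it.

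Hoxb6 and Hoxb7, neighbors in the middle of Hoxb, had differences of opposite sign. Hoxb6 was at 11.1, 10.8 and 9.03 TPM in Control and 13.9, 14.01 and 11.8 TPM in Prdm16SMKO aortas, all of the latter higher (log2 difference 0.36, SE 0.15, adjusted p = 0.37, limma). Hoxb7 was at 12.1, 10.8 and 11.5 TPM in Control and 10.1, 8.66 and 9.12 TPM in Prdm16SMKO aortas, all of the latter lower (log2 difference −0.30, SE 0.14, adjusted p = 0.42, limma). Neither passed. Hoxb5os, which overlaps Hoxb6 and whose reads could not be separated from it by strand, was at 2.19 ± 0.661 TPM in Control, with a log2 difference of 0.56 (95% CI −0.13 to 1.24).

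In Hoxa, the most abundant members had higher means in Prdm16SMKO aortas without passing. Hoxa3 was at 44.4, 43.4 and 38.8 TPM in Prdm16SMKO aortas, against the 27.8 to 39.1 TPM of the Control aortas. The lowest of the former was just under the highest of the latter, and the log2 difference was 0.33 (95% CI −0.01 to 0.67, adjusted p = 0.41, limma). Hoxa7 was at 24.4, 24.1 and 20.8 TPM in Prdm16SMKO aortas, and overlapped Control by the third aorta alone (log2 difference 0.28, 95% CI −0.07 to 0.64). Hoxa2 and Hoxa4, next to Hoxa3 in number, had negative differences whose intervals covered 0, at −0.24 (−0.65 to 0.17) and −0.16 (−0.54 to 0.21). Hoxa5 differed by 0.12 (−0.20 to 0.44) and Hoxa6 by 0.19 (−0.46 to 0.85).

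The remaining members also overlapped between the groups. In Hoxb, the log2 difference was 0.18 (95% CI −0.17 to 0.54) for Hoxb2, a hindbrain segment gene, and −0.01 (−0.39 to 0.38) for Hoxb3. It was 0.01 (−0.35 to 0.37) for Hoxb4, −0.05 (−0.70 to 0.59) for Hoxb5 and −0.07 (−0.52 to 0.38) for Hoxb8. In Hoxc it was −0.01 (−0.83 to 0.82) for Hoxc4, −0.22 (−1.38 to 0.95) for Hoxc5, −0.23 (−0.77 to 0.31) for Hoxc6 and −0.09 (−1.01 to 0.82) for Hoxc8. In Hoxd it was 0.03 (−1.32 to 1.37) for Hoxd4 and 0.24 (−0.81 to 1.28) for Hoxd8. Among the genes of this paragraph, Hoxc4, Hoxc5, Hoxc8, Hoxd4 and Hoxd8 had the widest intervals, and a shift of 1.5-fold in either direction lies inside each of these.

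Aortas differed from each other within a group in a way that many Hox genes shared. The first Control aorta was the highest of its group for 14 of the 22 genes, and the third was the lowest for 11. Among Prdm16SMKO aortas the third was the lowest for 14 of 22. These counts were not taken over all genes, so the pattern is not shown to be particular to Hox genes. The median log2 difference over all genes tested also moved with these aortas. It went from −0.12 to −0.0501 without the first Control aorta and to −0.178 without the third. Without the third Prdm16SMKO aorta it was −0.0647. Hotairm1, a noncoding transcript at the start of Hoxa, was at 13.0 TPM in the third Control aorta and at 31.5 and 28.7 TPM in the other two.

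Other genes that act on or with the Hox clusters were counted from lists. Of 61 genes tested across 5 lists, 1 passed, near the 1.07% of all genes tested, so the count says nothing particular about the lists. It was Cyp26b1, which encodes an enzyme that degrades retinoic acid, a signal that switches on low-numbered Hox genes in the embryo. It was at 11.1, 9.53 and 7.24 TPM in Control and 4.14, 4.58 and 2.99 TPM in Prdm16SMKO aortas, with no overlap (log2 difference −1.23 ± 0.23 SE, adjusted p = 0.0468, limma). The call was lost with a pseudocount of 1 or 0.01, without the filter, without the variance trend, and with any 1 of the 6 aortas left out, where 0 genes of these lists passed. No PRDM16 peak lay within 2 kb of a start of Cyp26b1. In the same list, of 10 tested, the retinoid receptors Rxra, Rarg and Rxrb were at 33.4 ± 4.19, 30.0 ± 2.86 and 29.3 ± 1.38 TPM in Control and the retinal dehydrogenase Aldh1a1 was at 11.5 ± 1.04 TPM, and none of the 4 passed. The genes Cdx1, Cdx2 and Cdx4, activators of Hox genes in the embryo, were listed at 0 in all aortas.

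Of 9 TALE cofactors 0 passed. Meis2, a HOX partner of the TALE class, was at 20.7 ± 3.02 TPM in Control, with Pbx2 at 17.3 ± 0.931 and Meis3 at 16.3 ± 1.54 TPM. Of 19 Polycomb genes, which keep Hox genes silent outside their domains, 0 passed, and Cbx7, Phc2, Aebp2 and Phf1 were the highest at 44.6 ± 3.09, 46.6 ± 5.43, 36.0 ± 3.67 and 24.7 ± 2.69 TPM. Of 12 Trithorax and MLL genes, which keep them active, 0 passed, with Psip1 at 46.4 ± 7.12, Kmt2d at 29.1 ± 3.67, Kdm6b at 24.3 ± 3.91 and Kmt2b at 20.2 ± 5.05 TPM. Of 11 cluster transcripts and neighbors tested, 0 passed. Calcoco1 and Skap2, just outside Hoxc and Hoxa, were at 76.1 ± 9.17 and 28.2 ± 2.29 TPM, and Mtx2, near Hoxd, at 12.0 ± 1.06 TPM. The antisense and noncoding Hox transcripts Hotair, Hottip and Hoxa11os, which lie among the high-numbered genes, were listed at 0, while Hotairm1 was at 24.4 ± 9.96 TPM.

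PRDM16 peaks in fibroblasts were read in the spans of the clusters, from the first to the last base of their Hox genes. They held 68 peaks in 491.8 kb, or 13.8 peaks per 100 kb, against 0.413 per 100 kb over the whole genome. Peaks covered 8.61% of the cluster sequence and 0.208% of the genome. The vector library had 67 peaks in all and 0 in the clusters. With 1 library for each condition there is no replicate check and no test. MACS2 gave each peak a fold enrichment, the height of the signal over its local background.

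The clusters differed in peak number. Hoxa held 22 peaks at 20.9 per 100 kb, Hoxb 29 at 16.7, Hoxc 15 at 13.0 and Hoxd 2 at 2.07 per 100 kb. When the genome was divided into 27268 bins of 100 kb, 24.2% held a peak summit, and the median among those was 1 summit. The Hoxb bin with 22 summits ranked first and the Hoxa bin with 17 ranked second, while a Hoxc bin with 10 shared rank 12. GC content of the spans was close, at 50.03% for Hoxa, 48.9% for Hoxb, 49.0% for Hoxc and 49.4% for Hoxd.

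**Figure D4:**
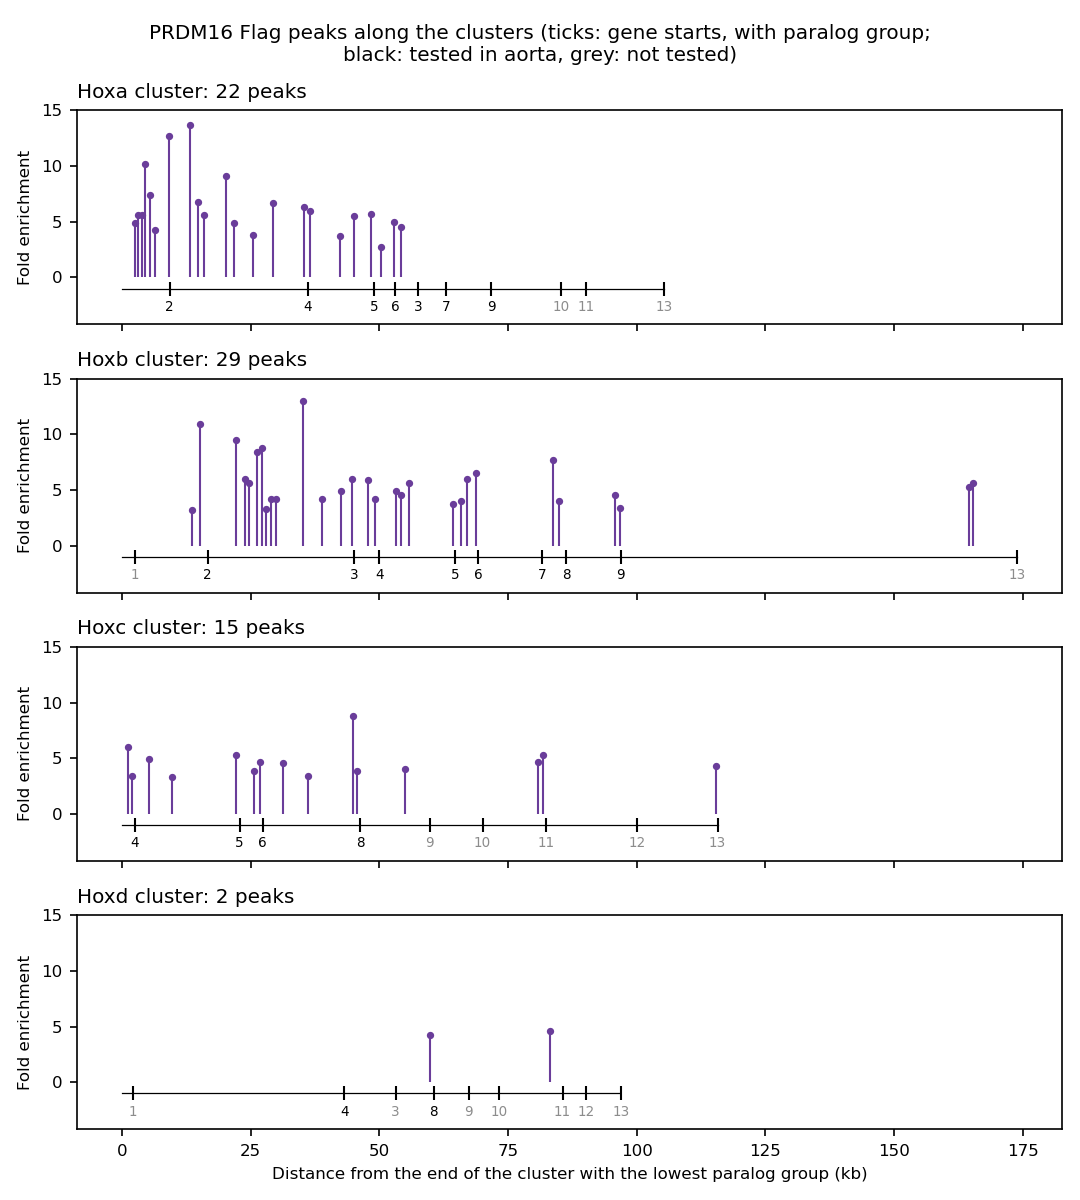
Fold enrichment of each PRDM16 Flag peak (1 library, fibroblasts) against distance in kb from the end of the cluster with the lowest paralog group, with gene starts as ticks marked by paralog group (black where tested in aorta). The 22 Hoxa peaks lie in the first 54.4 kb and none in the remaining 50.9 kb, Hoxb has 29 peaks mostly near groups 2 to 6, and Hoxd has 2.

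Peaks in Hoxa filled one side of the cluster. All 22 lay in the first 54.4 kb, up to a point between the starts of Hoxa6 and Hoxa3, and the last ended at 52209941 on chr6. The other 50.9 kb, with Hoxa7, Hoxa9, Hoxa10, Hoxa11 and Hoxa13, held 0. In aorta this peak-free side held both Hoxa7, at 19.1 ± 3.15 TPM in Control, and genes listed at 0. The strongest peak, chr6:52168436-52169175, had a fold enrichment of 13.7 and lay over an exon of Hoxaas2 upstream of Hoxa2. The next, chr6:52162962-52166337, had 12.7 and was 3376 bp long, covering most of the Hoxa2 gene and the promoter shown above. Another, chr6:52159999-52160244, had 10.2 and lay in Hotairm1. These peaks were at percentiles 99.4, 99.1 and 97.0 of fold enrichment among all peaks.

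Peaks in Hoxb were dense from Hoxb2 to Hoxb6. The strongest, chr11:96332152-96334026, had a fold enrichment of 13.0 and lay in an intron of Hoxb3. The next, chr11:96351968-96354218, had 10.9, was 2251 bp long and ran over Hoxb2. Hoxb3 held 12 peak centers in its body, more than any other Hoxb gene, and Hoxb6 had a peak at its start, chr11:96299097-96299756, with 6.51. Beyond Hoxb9 there were 67.2 kb without a peak, and then 2 peaks whose centers lay 8586 bp and 9438 bp downstream of the start of Hoxb13. Both centers were within 2 kb of a curated RefSeq start of a transcript other than a Hox gene. The summit of the latter peak lay in an exon of Gm11538.

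Hoxc and Hoxd had weaker peaks. In Hoxc the strongest, chr15:102991854-102992194, had a fold enrichment of 8.79 in the intron of Hoxc8. It is the window with the 2 motifs shown above. Of the other 14 peaks the strongest reached 5.98, and 2 of them lay in Hoxc11 and 1 at the start of Hoxc13, genes listed at 0 in aorta. In Hoxd the peak near Hoxd11, chr2:74681895-74682192, had 4.57 and that over Hoxd8, chr2:74704804-74705947, had 4.29. Neither Hoxd peak stayed at a q of at most 1e-05, where 16 Hoxa, 17 Hoxb and 5 Hoxc peaks stayed.

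Features of the Hox peaks are given beside those of the other peaks, with no test. Their median fold enrichment was 4.96, against 5.27 over the other 11190 peaks, and their median length was 480 bp against 394 bp. Median GC content was 60.0% against 63.1%, and 45.6% against 53.6% had both over 50% GC and a CpG ratio over 0.6. By place, 43 of 68 (63.2%) had their center within 2 kb of a curated RefSeq start, against 60.9% elsewhere. Exons took 7 (10.3%) against 2.85%, introns 11 (16.2%) against 17.3% and intergenic sequence 7 (10.3%) against 19.0%. The high density of peaks in the clusters was thus not matched by a higher median fold enrichment.

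A promoter peak, with its center within 2 kb of a start, was found for 20 of the 39 Hox genes, against 29.1% of 21000 protein-coding genes. By cluster these were 5 of 11 in Hoxa, 7 of 10 in Hoxb, 6 of 9 in Hoxc and 2 of 9 in Hoxd. Of the 22 genes that passed the filter in aorta, 17 had one, against 43.7% of protein-coding genes with a mean of at least 0.5 TPM. Of the 17 Hox genes under the filter, 3 had one (Hoxc11, Hoxc13 and Hoxd11), each listed at 0. No PRDM16 promoter peak was found for the tested genes Hoxa3, Hoxa7, Hoxa9, Hoxb7 and Hoxd4. For Hoxb7 the nearest peak center was 2.07 kb from the start and for Hoxa3 3.25 kb. It was 8.76 kb for Hoxa7, 16.6 kb for Hoxd4 and 17.6 kb for Hoxa9. Hoxa3 was judged from 1 start, and its long body, which spans Hoxa4, Hoxa5 and Hoxa6, held 14 peak centers. The bodies of Hoxa7, Hoxa9, Hoxb7 and Hoxd4 held 0. Aorta and fibroblasts are different sources, and the Hox genes that these fibroblasts express were not measured here.

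Most promoter peaks lay inside the genes. Of the 35 peaks within 2 kb of a Hox start, 24 (68.6%) had their center downstream of the start. The share was 80.3% for protein-coding genes outside the clusters. Over all 35 peaks, with upstream distances counted as negative, the median distance was 440 bp, against 254 bp for the peaks at those genes. Counting only 1 kb upstream to 100 bp downstream left 5 Hox genes, among them Hoxa4, Hoxb3, Hoxd8 and Hoxd11, against 9.52% of the 21000 protein-coding genes, so the Hox share lay near that of all genes in this window.

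Set side by side with the aorta data, the 17 tested genes with a promoter peak had log2 differences between Prdm16SMKO and Control of up to 0.36 with a median of −0.01, 7 above 0 and 10 below. The 5 without one ran from −0.30 to 1.24 with a median of 0.28, 4 above 0 and 1 below. Hoxb6, with a peak, and Hoxa9 and Hoxb7, without, all failed the test. Promoter peaks were also present at 9 of the 9 TALE cofactor genes, 9 of 19 Polycomb genes, 7 of 12 Trithorax and MLL genes, 7 of 14 genes of the retinoic acid and CDX list and 6 of 21 cluster transcripts and neighbors, beside 29.1% of all protein-coding genes and 43.7% of those with a mean of at least 0.5 TPM. Meis3, with a fold enrichment of 13.6, had the strongest of the cofactor peaks.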

How the data were processed

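RNA-Seq of 6 thoracic aortas and anti-Flag ChIP-Seq of 2 fibroblast libraries were analysed. IgG libraries were not analysed here. For RNA, the TPM values were deposited by the authors, whose processing notes name cutadapt 2.3, STAR 2.7.8a and RSEM 1.3.3 with GRCm38. For ChIP-Seq the deposited peak tables hold, from MACS2 after Bowtie2 2.3.4.1 alignment to mm10, a fold enrichment ratio and −log10 p and −log10 q values that the authors' caller wrote for each peak. The control used in peak calling is not given in the sources used here. TPM keeps no depth, and the peak tables give none for single libraries, for which the methods state only an average. No library was pooled, and 0 columns of the expression table were left out.

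Columns were matched to aortas by genotype and replicate number in their names. Groups were compared by limma 3.58.1 (R 4.3.3, lmFit and eBayes with a trend) on log2(TPM + 0.1), for 15668 genes with a mean of at least 0.5 TPM, with 2-sided p-values and Benjamini-Hochberg adjustment over all of them at 0.05. The fit was tested on simulated data. Fold changes on this scale understate those of low genes.

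Gene starts were curated RefSeq starts of GRCm38.p6, and spans of genes were those of GENCODE M21. A peak was in a cluster if it overlapped its span by at least 1 bp, and places were given by the peak center. Sequences were read with pysam 0.24.0. Members and lists were chosen with earlier results of these data known. The rule was to name every Hox gene, and of each list those that passed plus up to 4 with the highest mean TPM over all aortas. Single values of 1 Hox gene and 1 cofactor are not reported here, though counts and sums include them. Other genes, such as single markers, were named after their values were seen. Alternatives covered the pseudocount, filter, scaling, variance trend, replicate block, each aorta left out, promoter width, start annotation and peak threshold.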

Additional observations from a re-analysis of the deposited data

How the results depend on the processing

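The count of Hox genes that passed stayed at 0 under every alternative to the fit, including each aorta left out. Hoxb6 and Hoxa3 came nearest, with adjusted p-values (limma) from 0.0526 to 0.70 and from 0.0529 to 0.72 over all alternatives. Over all genes the 168 calls became 110 without the filter, 413 with values rescaled to a common median ratio, 392 with quantile-normalized values and 48 without the variance trend, and ran from 91 to 141 with 1 aorta left out. Rescaling moved the median log2 difference of all genes from −0.12 to 0.0046 (median ratio) and −0.0053 (quantile) and the calls from 61 higher and 107 lower to 200 and 213 (median ratio) or 189 and 203 (quantile). It moved the Hox median to 0.12 and 0.10, with 16 and 15 of 22 genes above 0. Same-numbered aortas of the 2 groups share only a number (correlation of their deviations across genes −0.0246, −0.07 and −0.00896). The fit with the replicate number as a block gave 184 calls over all genes, 0 Hox genes and 1 listed regulator. The count of listed regulators that passed, 1, became 0 with a pseudocount of 1 or 0.01, without the filter and without the variance trend, and 0 with any 1 aorta left out.

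Of 304 single values of the Hox genes, 272 kept their sign and 32, from 9 genes that did not pass anywhere, turned it. With a pseudocount of 1, Hoxd4 was at −0.0127. With the median-ratio rescaling, Hoxb3, Hoxb5, Hoxb8, Hoxc4 and Hoxc8 were at 0.116, 0.0664, 0.0546, 0.1101 and 0.0269. With quantile-normalized values, Hoxb3, Hoxb5, Hoxb8 and Hoxc4 were at 0.0976, 0.0425, 0.0347 and 0.0378. With 1 aorta left out, the values ran from −0.141 to 0.105 for Hoxb3, −0.113 to 0.0881 for Hoxb4, −0.228 to 0.213 for Hoxb5, −0.226 to 0.0993 for Hoxb8, −0.401 to 0.241 for Hoxc4, −0.611 to 0.154 for Hoxc5, −0.505 to 0.132 for Hoxc8, −0.484 to 0.373 for Hoxd4 and −0.127 to 0.467 for Hoxd8. The cause was not tested. The 20 Hox genes with a promoter peak became 5 with a window of 1 kb upstream to 100 bp downstream, which is narrower by construction and in which the share of all protein-coding genes also went from 29.1% to 9.52%, and lay between 14 and 23 under the others. GENCODE starts, an alternative chosen after seeing the data, gave the same 20 genes. The 68 peaks became 38 at a q of at most 1e-05. Depth could not be read from TPM or from the peak tables, which limits any statement on the low genes of groups 9 and 10.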
